A study of Mus musculus with 8 samples.

Results

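The genes that cut and rejoin DNA during V(D)J recombination were examined in mouse proB cell colonies, in 4 wild-type samples and in 4 samples that overexpress HMGN1 from a transgene. The list holds 10 genes, chosen by their Ensembl identifiers: Rag1, Rag2, Dntt, Prkdc, Dclre1c, Xrcc5, Xrcc6, Lig4, Xrcc4 and Nhej1. Of these, 9 were measured among the 27835 genes of the expression table, and the expression of Rag1 was not analysed here. All samples came from bone marrow cultured in a methylcellulose medium for B cells, with colonies taken after 1 week, and total RNA was hybridised to Affymetrix arrays, 1 array per sample. Genotype, as wild-type or HMGN1 over-expressing, is the only difference that the labels give between the groups. The strain, age and number of mice, and the promoter that drives the transgene, are not given in the sources used here. Nothing says that the 4 samples of a genotype came from separate animals, so the p-values here describe variation among these samples, part of which may be technical.

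V(D)J recombination assembles the variable part of immunoglobulin and T cell receptor genes from separate V, D and J segments. The RAG1 and RAG2 proteins together cut DNA beside a pair of segments and leave sealed hairpins on the segment ends. The end-joining pathway that every cell uses for double-strand breaks then opens, trims and ligates those ends, while terminal transferase, a lymphoid enzyme, adds bases that no template encodes. Early B cell progenitors rearrange the immunoglobulin heavy chain locus at the proB stage, and Rag2 and Dntt are among the genes used to recognise that stage.

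Rag2 and Dntt had intensities of 433 or more on every array, against array medians of 95.8 to 100.1 over all genes. That is a statement on signal, since probes of different genes cannot be set against each other as transcript levels. The table carries Ensembl identifiers without gene symbols, and the reference table used here held no Ensembl identifiers, so only the listed genes could be named. The overexpressed gene itself, the other proB markers, markers of other cell types and the further lists of repair genes and RAG regulators were therefore not analysed here. In colonies measured as a whole, fewer cells of a type and less RNA per cell cannot be told apart. Wild-type replicate 3 stood apart from the other arrays: it held the lowest value for 22.2% of all genes and for 6 of the 9 measured genes of the list (Rag2, Prkdc, Dclre1c, Xrcc5, Xrcc6 and Nhej1). The same array held the highest value for 20.2% of all genes and for 0 of these 9.

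The promoter sequences of the genes on which the results turn differ in base composition. They are the 250 bases before the annotated start in RefSeq, build GRCm38.p6, and 8 of the 9 measured genes had an entry (Prkdc had none). Capitals mark matches on either strand to 3 short motifs: the E-box CANNTG, the CCAAT box, and the GC box GGGCGG. Dntt is shown because its intensity differed most by genotype, and Xrcc5 as the partner of Xrcc6. Rag2 and Xrcc6 are shown because their log2 intensities had the highest Pearson's r across arrays of any pair of the measured genes.
Dntt (chr19:41029025-41029274, plus strand): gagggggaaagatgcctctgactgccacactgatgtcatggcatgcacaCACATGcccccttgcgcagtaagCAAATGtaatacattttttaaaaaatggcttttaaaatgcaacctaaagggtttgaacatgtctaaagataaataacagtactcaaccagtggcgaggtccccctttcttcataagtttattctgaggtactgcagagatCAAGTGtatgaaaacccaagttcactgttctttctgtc
Rag2 (chr2:101624462-101624711, plus strand): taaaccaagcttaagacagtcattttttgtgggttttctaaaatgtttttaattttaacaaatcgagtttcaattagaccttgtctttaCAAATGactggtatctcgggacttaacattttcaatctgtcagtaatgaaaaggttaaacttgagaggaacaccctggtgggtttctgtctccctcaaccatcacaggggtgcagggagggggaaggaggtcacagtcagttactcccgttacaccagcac
Xrcc6 (chr15:82016119-82016368, plus strand): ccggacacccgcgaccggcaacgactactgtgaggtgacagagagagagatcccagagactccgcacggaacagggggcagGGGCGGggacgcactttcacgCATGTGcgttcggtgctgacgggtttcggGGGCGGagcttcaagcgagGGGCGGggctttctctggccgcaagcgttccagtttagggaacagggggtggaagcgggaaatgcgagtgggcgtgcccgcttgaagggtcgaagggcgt
Xrcc5 (chr1:72307171-72307420, plus strand): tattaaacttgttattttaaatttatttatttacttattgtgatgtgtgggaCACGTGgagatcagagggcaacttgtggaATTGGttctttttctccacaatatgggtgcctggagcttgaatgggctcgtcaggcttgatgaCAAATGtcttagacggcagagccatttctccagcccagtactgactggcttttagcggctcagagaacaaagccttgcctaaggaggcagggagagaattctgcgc

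The Dntt and Rag2 windows were poor in G and C. The share of G and C was 41.6% for Dntt and 41.2% for Rag2, against a median of 52.4% over 32851 mouse promoter windows of this length, and the windows held 2 and 3 CpG dinucleotides against a median of 6. The Xrcc6 window had 65.2% G and C and 25 CpG dinucleotides, and the Xrcc4 window 68.0% and 26. Lig4 has 2 annotated starts, whose windows held 70.0% and 68.4% G and C. The Rag1 window, at 50.8%, the Nhej1 window, at 48.4%, and the Dclre1c window, at 54.8%, lay nearer to the median. Xrcc5, with 44.8% G and C, was closer in composition to Rag2 than to Xrcc6.

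E-boxes were found at positions -201, -178 and -38 of Dntt, counted from the first base before the start as -1. They also lay at position -161 of Rag2, positions -198 and -106 of Xrcc5 and position -148 of Xrcc6. Of the windows not printed, those of Rag1, Dclre1c, Lig4 and Nhej1 held an E-box and that of Xrcc4 did not. An E-box lies in 66.2% of all windows. GC boxes were found at positions -169, -119 and -100 of Xrcc6 and not in the windows of Dntt, Rag2 or Xrcc5, and 32.7% of all windows hold one. The unprinted windows of Dclre1c, Xrcc4 and Nhej1 and the Lig4 window with 68.4% G and C also held a GC box. The Rag1 window did not. Xrcc5 had a CCAAT box at position -169, a motif in 33.8% of windows. Dclre1c, whose window is not printed, held 3 CCAAT boxes, at positions -81, -70 and -38, and Rag1 held 1, at position -97. The TATA motif TATAAA, which 12.4% of windows hold, was also searched on both strands. So were TGGGAA, a run within Ikaros sites found in 21.6% of windows, and CGGAAG, a run within ETS sites found in 13.6%. None of these had a match in the 4 windows shown. A match is a run of letters and does not show that a factor binds.

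The comparison of genotypes asks whether HMGN1, a nucleosome-binding protein, alters transcript levels of these genes when overexpressed. None of the 9 genes passed the threshold of 0.05 on the adjusted p by limma with Benjamini-Hochberg adjustment over 27835 genes, where 0.0144% of all genes did. At an unadjusted p under 0.05, 1 of the 9 passed, Dntt, against 10.4% of all genes. Means were higher in HMGN1-overexpressing colonies for 8 of the 9 and lower for Lig4. The median log2 fold change of the 9 was 0.13, against -0.0018 over all genes, and 49.4% of all genes had a positive value. Without wild-type replicate 3 the median of the 9 was 0.05, against -0.0020 over all genes, and Dclre1c joined Lig4 below 0. Leaving out any other single array gave medians of 0.10 to 0.18 for the 9.

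Rag2 encodes the subunit of the recombinase that reads a histone mark of active promoters and, with RAG1, makes the cut. Its intensity was 615, 640.2, 433 and 613 in wild-type replicates 1 to 4 and 566, 714, 762 and 641 in HMGN1 replicates 1 to 4. The genotypes overlapped: HMGN1 replicate 1 lay below 3 wild-type arrays, and wild-type replicate 3 lay below all others. The means were 575 ± 96.0 and 671 ± 85.9 (SD, n = 4 each), a log2 fold change of 0.23 (SE 0.14, 95% interval -0.08 to 0.54, limma adjusted p = 0.597). Without wild-type replicate 3 the log2 fold change was 0.10 (limma adjusted p = 0.779).

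Dntt encodes terminal transferase, which adds untemplated bases at the junctions and so widens the range of receptors. In the wild-type arrays its intensity was 650.4, 1017, 1113 and 738, and in the HMGN1-overexpressing arrays 1364, 1257, 1355 and 1490.3. Every HMGN1-overexpressing array lay above every wild-type array, which was the case for 1155 genes of the table, 4.15% of all. The wild-type arrays were themselves far apart, replicates 1 and 4 being low and replicates 2 and 3 high, with a highest value 1.71 times the lowest. In the HMGN1-overexpressing arrays that ratio was 1.19.

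Mean Dntt intensity was 879.9 ± 221 in wild-type and 1367 ± 95.7 in HMGN1-overexpressing colonies (SD, n = 4 each). The log2 fold change was 0.67 (SE 0.16), a fold of 1.59 with a 95% interval of 1.24 to 2.03. It did not pass over all genes (limma adjusted p = 0.199, unadjusted p = 0.00194 from the same limma fit), and its p ranked 265 among all genes. In the table, 45 genes had a log2 fold change as high or higher, Dntt included. With the first component of the residual variation as a covariate Dntt passed, at an unchanged log2 fold change of 0.67 (SE 0.11, limma adjusted p = 0.0422). That component was taken from what genotype left unexplained in these same data, so the fold change could not move. The component held 34.5% of the residual variance and was led by wild-type replicate 3. Over the table that fit called 105 genes higher and 136 lower, in place of 3 and 1. The pass is therefore not a separate line of support for Dntt. Over all 16 alternatives the limma adjusted p ranged from 0.0422 to 0.456.

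**Figure D1:**
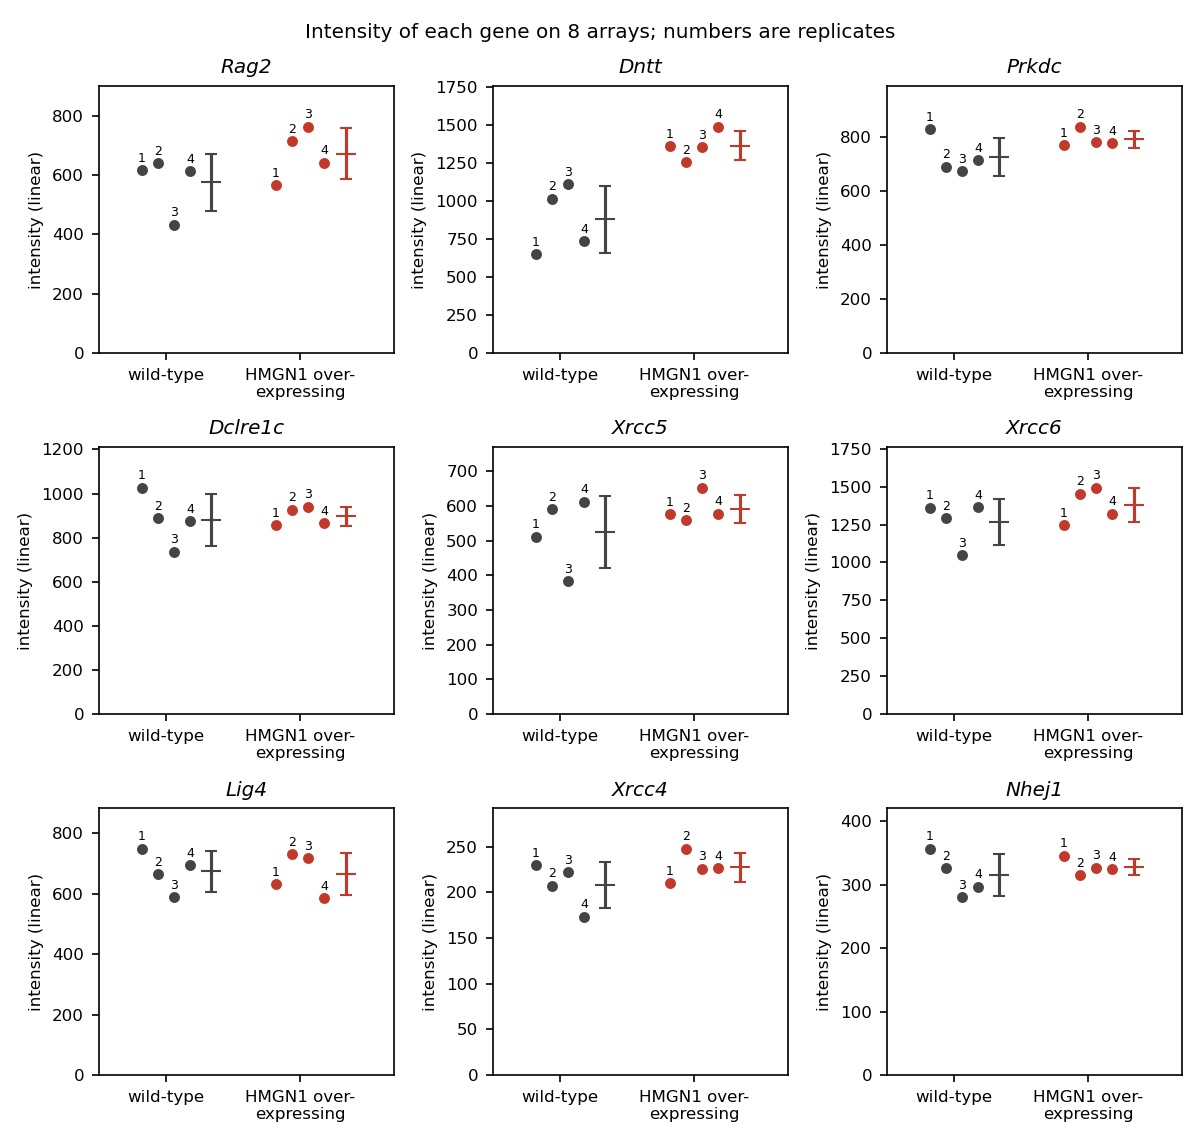
Intensity on a linear scale (y axis, from 0) of the 9 measured genes in each wild-type (grey) and HMGN1-overexpressing (red) array; numbers are replicates, and bars give the mean ± SD of 4 arrays. For Dntt the lowest HMGN1-overexpressing array, at 1257, is above the highest wild-type array, at 1113, whereas the genotypes overlap in the other 8 panels.

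Prkdc encodes the DNA-dependent protein kinase catalytic subunit, which is held at the break by Ku and whose loss causes the scid immune deficiency of mice. Its intensity was 830.1, 691, 675 and 716 in wild-type and 770.4, 839.6, 782 and 778 in HMGN1-overexpressing replicates 1 to 4. Wild-type replicate 1 was the second highest of the 8 arrays, and each of the other wild-type arrays lay below every HMGN1-overexpressing array. This gave a log2 fold change of 0.13 (SE 0.08, 95% interval -0.04 to 0.30, limma adjusted p = 0.597). Leaving out wild-type replicate 1 gave 0.19 (limma adjusted p = 0.363), and leaving out wild-type replicate 3 gave 0.09 (limma adjusted p = 0.722). Its residual SD, 0.10 on the log2 scale, was the smallest of the 9, near the median of 0.12 over all genes.

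Dclre1c encodes Artemis, the nuclease that opens the hairpins once the kinase has activated it. Wild-type intensities were 1026, 887, 736 and 874, and those of the HMGN1-overexpressing arrays were 856, 927, 939.9 and 866. All 4 HMGN1-overexpressing arrays lay inside the wild-type range. The log2 fold change was 0.04 (SE 0.10, 95% interval -0.18 to 0.25, limma adjusted p = 0.927) and turned to -0.05 without wild-type replicate 3 (limma adjusted p = 0.869). Leaving out wild-type replicate 1 gave 0.11 (limma adjusted p = 0.680).

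Xrcc5 and Xrcc6 encode the larger and the smaller subunit of Ku, the ring that slides onto a broken end and starts the joining reaction. Xrcc5 had intensities of 511, 589.5, 382 and 612 in wild-type and 576, 558, 652 and 577 in HMGN1-overexpressing replicates 1 to 4. Wild-type replicate 3 was far below the rest, and the other arrays of both genotypes were mixed. The log2 fold change of Xrcc5 was 0.19 (SE 0.14, 95% interval -0.11 to 0.50, limma adjusted p = 0.658), and without wild-type replicate 3 it was 0.05 (limma adjusted p = 0.875).

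Xrcc6 had intensities of 1361, 1290.0, 1047 and 1364 in wild-type and 1247, 1454, 1493 and 1321 in HMGN1-overexpressing replicates 1 to 4. HMGN1 replicates 2 and 3 were the highest arrays and wild-type replicate 3 the lowest, with overlap between. The log2 fold change was 0.13 (SE 0.10, 95% interval -0.09 to 0.35, limma adjusted p = 0.686). It fell to 0.04 without wild-type replicate 3 (limma adjusted p = 0.897).

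Lig4 encodes DNA ligase IV, which seals the junction, and its intensity was 748, 664, 587 and 695 in wild-type and 632, 731, 717 and 585 in HMGN1-overexpressing replicates 1 to 4. Low and high arrays occurred in both genotypes. Its log2 fold change was -0.02 (SE 0.10, 95% interval -0.23 to 0.20, limma adjusted p = 0.969), and its sign turned when 1 of several arrays was left out. The value was -0.08 without wild-type replicate 3 (limma adjusted p = 0.806).

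Xrcc4 encodes the scaffold that stabilises the ligase. Its intensity was 229.9, 207, 222 and 173 in wild-type and 209.7, 248, 226 and 226 in HMGN1-overexpressing replicates 1 to 4. Wild-type replicate 4 was the lowest array and the remaining values overlapped, with a log2 fold change of 0.13 (SE 0.10, 95% interval -0.08 to 0.35, limma adjusted p = 0.665). With wild-type replicate 4 left out it was 0.05 (limma adjusted p = 0.861).

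Nhej1 encodes XLF, which bridges ends together with XRCC4. Its intensity ranged from 281 to 357 in wild-type and from 316 to 346 in HMGN1-overexpressing arrays, the latter inside the former. Its log2 fold change was 0.06 (SE 0.08, 95% interval -0.12 to 0.24, limma adjusted p = 0.818). It was 0.01 without wild-type replicate 3 (limma adjusted p = 0.976) and 0.13 without wild-type replicate 1 (limma adjusted p = 0.586), and leaving out wild-type replicate 4 or HMGN1 replicate 1 gave 0.04 each. For 8 of the 9 genes, Dntt being the exception, the 95% interval excluded a difference of 2-fold or more in either direction. These intervals are for single genes and are not adjusted for the number of genes.

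**Figure D2:**
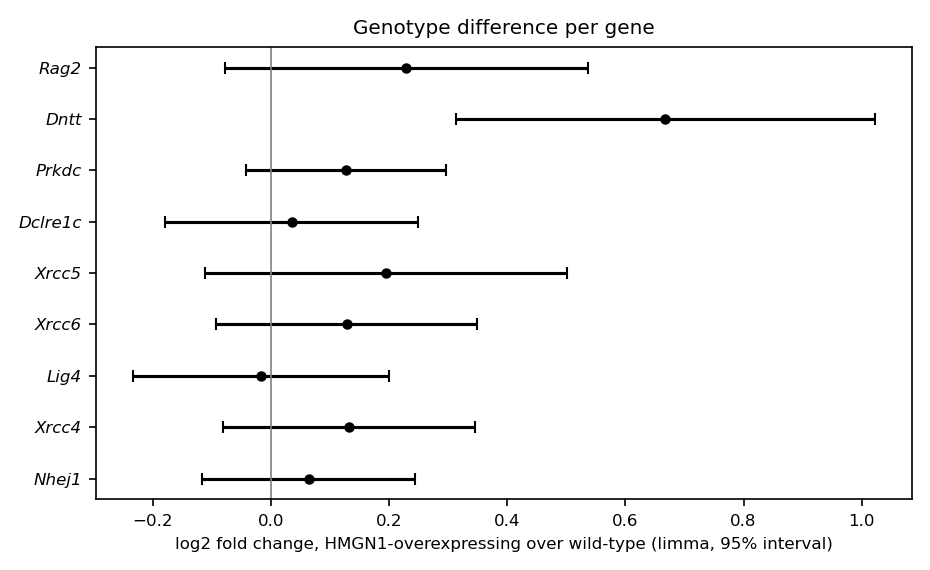
Log2 fold change of HMGN1-overexpressing over wild-type colonies (x axis) for the 9 measured genes, with points at the limma estimate and bars for the 95% interval of the single gene. The interval of Dntt, 0.31 to 1.02, lies above 0, and those of the other 8 genes include 0.

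The spread between replicates was wider in wild-type than in HMGN1-overexpressing arrays for all 9 genes, by the ratio of the highest to the lowest array. Over the whole table the wild-type ratio was the wider for 61.2% of genes. Without wild-type replicate 3, which leaves 3 arrays against 4, it was the wider for 6 of the 9 genes (Rag2, Xrcc6 and Lig4 turned) and for 39.3% of all genes. Beside Dntt, the largest wild-type ratios were 1.60 for Xrcc5 and 1.48 for Rag2, where the HMGN1-overexpressing arrays gave 1.17 and 1.35. In both, wild-type replicate 3 was the lowest array. The residual SD of Dntt, 0.27 on the log2 scale, was larger than that of 93.6% of genes, and those of Rag2 and Xrcc5, 0.23 each, were larger than that of 89.3%.

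**Figure D3:**
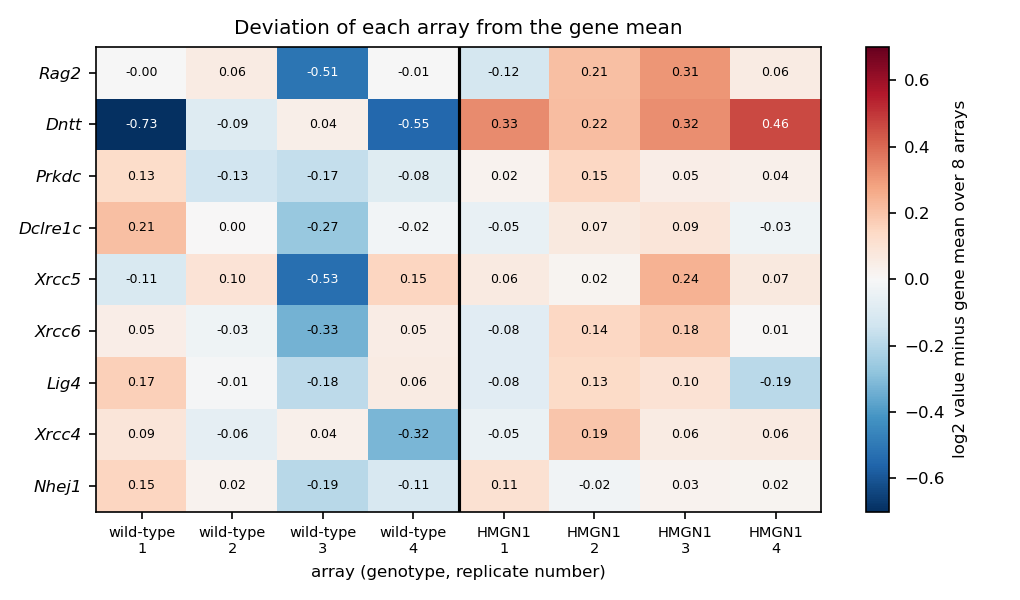
Log2 intensity minus the gene's mean over all arrays, for the 9 measured genes (rows) in the 8 arrays (columns, wild-type left of the line); red is above and blue below the gene mean. Rag2, Xrcc5 and Xrcc6 are lowest in wild-type replicate 3, at -0.51, -0.53 and -0.33, whereas Dntt is lowest in wild-type replicates 1 and 4, at -0.73 and -0.55.

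Dntt did not follow the same arrays as Rag2, Dclre1c, Lig4 and Nhej1. In wild-type replicate 3, where Rag2 lay 0.51 below its mean on the log2 scale, Dntt was at its wild-type maximum. In wild-type replicate 1, where Dntt was lowest, Dclre1c, Lig4 and Nhej1 had their highest values of all 8 arrays. Xrcc4 and Dntt were both low in wild-type replicate 4, at -0.32 and -0.55 from their means. Pearson's r of that pair was 0.42 (exact permutation p = 0.310). Across the 8 arrays, Pearson's r of Rag2 and Dntt was 0.15 (exact permutation p = 0.727) and Spearman's rho was 0.29 (exact permutation p = 0.501). For Xrcc5 and Xrcc6, r was 0.83 (exact permutation p = 0.0338, 0.0676 when adjusted over these 2 pairs) and rho was 0.52 (exact permutation p = 0.197, 0.393 adjusted). Without wild-type replicate 3 and HMGN1 replicate 3, the arrays farthest from the median of Xrcc5, r was -0.26. With wild-type replicate 3 alone left out r was 0.29 (exact permutation p = 0.538), and without HMGN1 replicate 3 alone it was 0.79 (exact permutation p = 0.0992), so the relation of the Ku subunits rested on wild-type replicate 3.

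All 36 pairs of the 9 genes were then examined, a choice made after the data were seen, with r above 0 in 31. The median r was 0.46. Leaving out wild-type replicate 3 gave 26 pairs above 0 and a median of 0.35. The share above 0 over pairs of all genes was not computed. After Benjamini-Hochberg adjustment over the 36, 2 pairs passed by the exact permutation test of r. That test, here and above, exchanged arrays across genotypes, so a genotype difference shared by both genes counted towards r. Rag2 and Xrcc6 had an r of 0.97 (exact permutation p = 0.000942, adjusted 0.0339) and a rho of 0.79 (exact permutation p = 0.0279, adjusted 0.299). Dclre1c and Lig4 had an r of 0.83 (exact permutation p = 0.00231, adjusted 0.0415) and a rho of 0.88 (exact permutation p = 0.00724, adjusted 0.261). By rho, no pair passed the adjustment. Without the 2 arrays farthest from the median of the first gene, r was 0.80 for Rag2 and Xrcc6 (exact permutation p = 0.0639) and 0.79 for Dclre1c and Lig4 (exact permutation p = 0.0708). Without wild-type replicate 3, the r of Rag2 and Xrcc6 was 0.89 and 0 pairs passed. Likewise 0 pairs passed without wild-type replicate 4 or without HMGN1 replicate 1, 2 or 3, 1 passed without wild-type replicate 2, and 3 passed without wild-type replicate 1.

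With each genotype's mean removed, as a description, r was 0.96 for Rag2 and Xrcc6 and below 0 for 7 of the 8 pairs that contain Dntt. The values reached -0.86 for Dntt with Prkdc, -0.81 with Dclre1c and -0.78 with Lig4. Without that step 4 of the 8 pairs were below 0, the value for Dntt with Dclre1c being -0.35. Taking all genes, the r of Xrcc6 with Dntt, -0.02, was above that of 50.2%. The lowest and highest of the 8, with Lig4 and Xrcc4, were above those of 14.8% and 83.5% of genes. The share of all genes below 0 with genotype means removed was not computed, so the 7 of 8 cannot be set against a background. Within genotypes the spread of Dntt lay mainly in the wild-type arrays, with a highest-to-lowest ratio of 1.71 against 1.19. No array was left out for these values. The points of each pair share their arrays and the normalization, and 4 arrays per genotype are too few for a test within a genotype.

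**Figure D4:**
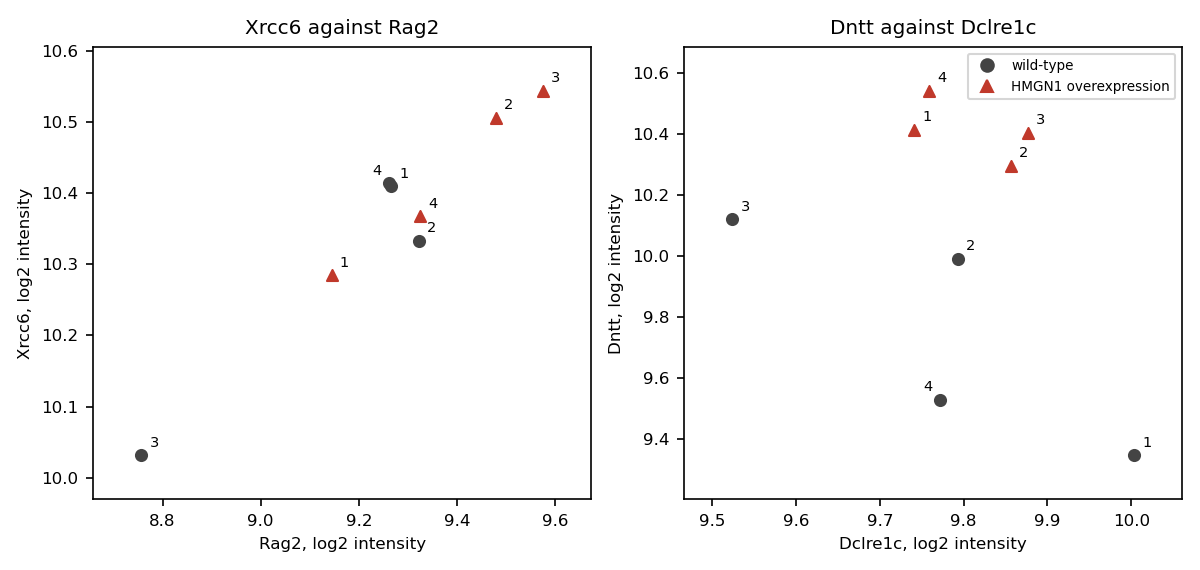
Log2 intensity of Xrcc6 against Rag2 (left) and of Dntt against Dclre1c (right), 1 point per array, with wild-type as grey circles, HMGN1-overexpressing as red triangles and replicate numbers beside the points. On the left both genotypes lie along 1 rising band with wild-type replicate 3 at its low end, and on the right the HMGN1-overexpressing arrays lie above the wild-type arrays.

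Genes most like Rag2 and Dntt were sought among 3730 genes with a mean signal above the median and an SD over arrays at or above the percentile 75. For Rag2 the closest was ENSMUSG00000051124_at, with an r of 0.98 over 8 arrays and a log2 fold change of 0.20 (limma adjusted p = 0.588). For Dntt it was ENSMUSG00000052751_at, with an r of 0.98 and a log2 fold change of 0.30 (limma adjusted p = 0.201). The table does not pair these identifiers with names. Taking all genes of the table, the r of Xrcc6 with Rag2 was above that of 99.9% of genes, while the r of Xrcc5 with Rag2, 0.86, was above that of 97.6%. The value for Xrcc5 rested on wild-type replicate 3. Without that array its r with Rag2 was 0.44 (exact permutation p = 0.326), and over all 8 arrays rho was 0.50.

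The identifiers of the measured genes in the table are ENSMUSG00000032864_at (Rag2), ENSMUSG00000025014_at (Dntt), ENSMUSG00000022672_at (Prkdc), ENSMUSG00000026648_at (Dclre1c), ENSMUSG00000026187_at (Xrcc5), ENSMUSG00000022471_at (Xrcc6), ENSMUSG00000049717_at (Lig4), ENSMUSG00000021615_at (Xrcc4) and ENSMUSG00000026162_at (Nhej1).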

How the data were processed

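The deposited table holds 1 intensity per gene and array on a linear scale, made by the authors with RMA, per the submitters' processing notes; RMA corrects background, equalises the distributions of the arrays and combines the probes of a gene. The scale was read from the values. The genome build and the version of the gene definition are not given in the sources used here. Because the distributions are equalised, a shift of all transcripts together cannot be seen. No 2 arrays were copies: at most 0.108% of values were equal in any pair. There were 0 columns of other samples.

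Log2 of the intensity was fitted with limma 3.58.1 (R 4.3.3) over 8 arrays and all 27835 genes, with genotype as the only term, and p-values were adjusted over all genes. The fit and the exact permutation test over pairings of arrays were tested on simulated data. There the genes varied independently of each other, and the permutation check used values without genotypes. These checks therefore do not cover variation that genes share across arrays. Members and lists were chosen with earlier results of these data known. The planned naming rule took all members of the list and the closest genes to Rag2 and Dntt; pairs with Rag1, lists known only by symbol and cell type markers were not tested. Precision is limited by having 4 arrays per genotype. The alternatives changed the scaling (median subtraction or quantile normalization), the offset (16 added before log2), the genes kept (above the median signal), the variance model (trended and robust, or weighted arrays), the covariates (replicate block, or first residual component) and the arrays (each left out).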

Additional observations from a re-analysis of the deposited data

Results flagged for a closer look

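Of 18 groups of 4 values, 9 genes in 2 genotypes, 1 held an array far from the others, where chance gives about 0.9 (1 in 20). It was Rag2 in wild-type replicate 3, at a log2 value of 8.76, whose gap to the nearest wild-type array took up 0.891 of the group's range. Without that array the log2 fold change of Rag2 was 0.10 in place of 0.23. The array was also the lowest of the 8 for 22.2% of all genes and the highest for 20.2%. What sets it apart was not tested.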

How the results depend on the processing

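No member passed in 15 of the 16 alternatives. With the covariate from the residuals 1 passed, Dntt (log2 fold change 0.67, limma adjusted p = 0.0422). That fit called 105 genes higher and 136 lower over the table in place of 3 and 1. At an unadjusted limma p under 0.05 it held 4360 in place of 2902 genes. Of the members it held 4 in place of 1 (Rag2, Dntt, Xrcc5 and Xrcc6). The covariate came from the residuals left after genotype, so it could change the SE but not the estimate. For Rag2 the log2 fold change stayed at 0.23 while the SE went from 0.14 to 0.07. With wild-type replicate 3 left out instead, Rag2, Xrcc5 and Xrcc6 had log2 fold changes of 0.10, 0.05 and 0.04. Dntt kept its direction in all 16 (log2 fold change 0.53 to 0.79). Leaving out 1 array could not turn it, since every HMGN1-overexpressing array lay above every wild-type array. The replicate block, the gene filter, the trended and robust variance and the residual covariate could not move the estimate. Differences near 0 changed sign: Lig4 was 0.0011 with array medians subtracted and -0.080 to 0.044 with 1 array left out (0.036 without wild-type replicate 1, 0.00051 without wild-type replicate 4, 0.0072 without HMGN1 replicate 1 and 0.044 without HMGN1 replicate 4), and Dclre1c was -0.0039 with array weights and -0.048 (without wild-type replicate 3) to 0.11 with 1 array left out. The other 6 members stayed above 0, at 0.10 to 0.31 (Rag2), 0.09 to 0.19 (Prkdc), 0.05 to 0.28 (Xrcc5), 0.04 to 0.18 (Xrcc6), 0.05 to 0.18 (Xrcc4) and 0.01 to 0.13 (Nhej1) with 1 array left out. Leaving out 1 array gave 0 to 16 genes higher and 0 to 24 lower at an adjusted p under 0.05, 2266 to 3038 genes and 1 to 2 members at an unadjusted p under 0.05, and 0 to 3 of the 36 pairs past the threshold. The r of Xrcc5 and Xrcc6 ranged from 0.29 (without wild-type replicate 3) to 0.88 and passed without HMGN1 replicate 2 (0.88, exact permutation p = 0.0202, 0.0405 adjusted over 2 pairs). That of Rag2 and Dntt ranged from -0.0066 (without HMGN1 replicate 3) to 0.33.

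A fit with a replicate block gave 0 genes higher and 0 lower by limma, 0 members passed, and Dntt had a log2 fold change of 0.67 (limma adjusted p = 0.381). Deviations from the group mean did not go together in same-numbered arrays (r = -0.078, -0.088, -0.24 and -0.095 over genes), and the labels do not say that numbers pair the samples. The planned counts for lists known only by symbol and the pairs with Rag1 were not run. Detection above background is unknown.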
